A study of Mus musculus with 15 samples.

Results

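The ATP-binding cassette (ABC) transporter genes of the mouse were followed through 6 genotypes of cultured prostate epithelial cells. Members were all genes whose symbol starts with Abc, then a subfamily letter a to g and a number, with an optional a or b at the end. This gave 50 of the 21886 genes in the deposited RPKM table and 32 of the 14301 genes in the deposited count table. By subfamily, A held 16 members, B and C 10 each, D 4, E 1, F 3 and G 6. The transporter genes Cftr, Tap1 and Tap2, which belong to subfamilies C and B, carry other symbols and were counted apart.

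RNA was sequenced from prostate epithelial cells grown as organoids, which are small 3-dimensional cultures derived from tissue, from C57BL/6 mice. In 4 groups from 3-month-old mice every genotype carried PtenPC+/-. The double null group was PtenPC+/-;Setd2PC-/-;Ezh2PC-/-, the Ezh2 null group PtenPC+/-;Ezh2PC-/-, the Setd2 null group PtenPC+/-;Setd2PC-/-, and the control group PtenPC+/- alone. A further pair of groups came from 2-month-old mice, Ezh2 K735R (PtenPC-/-;Ezh2K735R) and wild-type Ezh2 (PtenPC-/-), in which the K735R form of Ezh2 has arginine in place of a lysine. What PC stands for, the Cre driver and the deleted exons were not given. Each group had 2 libraries. A library of the PtenPC+/- groups came from the combined RNA of 3 biological replicates, and p-values therefore reflect how these libraries vary and not how animals vary. For the K735R and wild-type Ezh2 groups no pool size is given.

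ABC proteins bind and hydrolyse ATP through a pair of conserved nucleotide-binding domains. In subfamilies A, B, C, D and G these domains are joined to membrane-spanning segments, and the energy moves lipids, sterols, bile salts, peptides, drugs or conjugated organic anions across a membrane. Subfamilies E and F lack membrane-spanning segments and act in ribosome recycling and translation. EZH2 is the catalytic subunit of Polycomb repressive complex 2, which methylates histone H3 at lysine 27, a mark of repressed genes, and SETD2 trimethylates lysine 36 of the same histone in the bodies of transcribed genes. The design asks how loss of either enzyme, of both, or a change of 1 residue in EZH2 alters expression in prostate epithelial cells.

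Reads on genes, recovered from the RPKM values, numbered 29686148 to 54223279 per library, with all 4 Ezh2-deleted libraries above all 4 others, and count totals were 28831228 to 37482322. Ezh2 itself had 16.6 and 14.2 RPKM in double null, 13.8 and 11.6 RPKM in Ezh2 null, 24.2 and 20.7 RPKM in Setd2 null, and 19.4 and 20.8 RPKM in control. The Ezh2-deleted libraries were lower without being empty (limma, log2 fold change -0.63 in Ezh2 null over control, adjusted p = 0.00414). Setd2 had 8.99 and 7.54 RPKM in double null, 14.6 and 11.6 RPKM in Ezh2 null, 8.75 and 10.3 RPKM in Setd2 null, and 17.0 and 16.1 RPKM in control, with a log2 fold change of -0.74 in Setd2 null over control (limma adjusted p = 0.0563). The epithelial keratin Krt8 was at 688 to 1327 RPKM in all 8 libraries, so the labelled cell type had its defining markers.

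The sequences upstream of some members are shown first, since the results below return to these genes. They are the windows from 250 bases before to 50 bases after the gene start in RefSeq (GRCm38.p6), and capitals mark each CG dinucleotide, the site of DNA methylation in mammals. Among the members named for a large change, Abcb5 and Abcg2 had the highest log2 fold changes in Ezh2 null over control, and Abcc4 and Abcb1b the lowest. Abcc4 rose by only 0.46 there and was named for its 1.07 in double null over Setd2 null. Abcb1a was added after its values were seen because it lies next to Abcb1b.
Abcb5, chr12:118966372-118966671, minus strand: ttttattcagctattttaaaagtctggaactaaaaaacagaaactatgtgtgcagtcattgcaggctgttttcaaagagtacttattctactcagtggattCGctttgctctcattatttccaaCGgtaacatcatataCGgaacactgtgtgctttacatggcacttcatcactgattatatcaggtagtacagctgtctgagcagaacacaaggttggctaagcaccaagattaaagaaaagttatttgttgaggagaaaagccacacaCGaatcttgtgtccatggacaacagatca
Abcg2, chr6:58584283-58584582, plus strand: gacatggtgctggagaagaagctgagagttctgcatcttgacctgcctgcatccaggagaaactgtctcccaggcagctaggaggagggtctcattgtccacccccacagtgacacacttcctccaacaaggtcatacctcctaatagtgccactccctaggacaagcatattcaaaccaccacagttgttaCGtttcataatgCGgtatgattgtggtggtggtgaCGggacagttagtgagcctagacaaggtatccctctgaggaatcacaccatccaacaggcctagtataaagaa
Abcb1a, chr5:8566841-8567140, plus strand: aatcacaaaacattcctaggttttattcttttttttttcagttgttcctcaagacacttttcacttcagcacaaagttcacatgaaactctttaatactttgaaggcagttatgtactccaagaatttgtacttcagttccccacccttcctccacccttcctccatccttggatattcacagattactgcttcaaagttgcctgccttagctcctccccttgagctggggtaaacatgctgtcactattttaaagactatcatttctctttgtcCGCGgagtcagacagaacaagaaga
Abcb1b, chr5:8797897-8798196, plus strand: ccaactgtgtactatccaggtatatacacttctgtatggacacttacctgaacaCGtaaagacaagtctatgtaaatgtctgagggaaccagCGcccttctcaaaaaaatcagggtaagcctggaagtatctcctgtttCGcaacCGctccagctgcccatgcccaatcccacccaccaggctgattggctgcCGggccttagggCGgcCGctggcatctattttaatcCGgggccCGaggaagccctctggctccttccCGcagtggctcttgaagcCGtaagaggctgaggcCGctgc
Abcc4, chr14:118706170-118706469, minus strand: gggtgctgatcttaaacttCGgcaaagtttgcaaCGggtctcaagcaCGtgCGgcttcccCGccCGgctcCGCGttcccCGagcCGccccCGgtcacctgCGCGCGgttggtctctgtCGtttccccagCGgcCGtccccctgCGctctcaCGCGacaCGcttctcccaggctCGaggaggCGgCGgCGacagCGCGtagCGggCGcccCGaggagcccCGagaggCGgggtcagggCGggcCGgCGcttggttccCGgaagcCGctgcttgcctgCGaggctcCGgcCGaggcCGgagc

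The Abcb5 window holds 4 CG dinucleotides, that of Abcg2 3, that of Abcb1a 2, that of Abcb1b 12 and that of Abcc4 41, against a median of 7 over all 32851 windows of the same length. For Abcg2 the table has 3 windows, and the one nearest the gene start of the RPKM table is printed. The window of Abcb5 begins its 50 transcribed bases 126 bases from the gene start of that table, and the window of Abcc4 470 bases from it. Read on both strands, GGGCGG is in the windows of Abcb1b and Abcc4 (35.7% of all windows hold it), TATAAA in that of Abcg2 (13.6%), and CCAAT in that of Abcb1b (37.4%), with no overlap between these letters. None of these is in the printed windows of Abcb5 and Abcb1a. In the Abcg2 window TATAAA lies after the RefSeq gene start, within the 50 transcribed bases. A window was found for 38 members. The median was 24 CG dinucleotides in the windows of the 19 members that passed the expression filter described next, and 10 in those of the 19 that did not.

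The filter on low values, a mean across all 8 libraries of 1 RPKM or more, was passed by 25 of the 50 members. RPKM, the reads on a gene scaled by its length and by the depth of the library, is a level per length, so it can be compared between genes. The members just inside the limit were Abcb1a with a mean of 1.002 and Abca1 with 1.08 RPKM, and those just outside were Abcb9 with 0.310 and Abcc8 with 0.192 RPKM. Abca1, Abcb1a and Abcb5 passed although at least 1 group had a mean under 1 RPKM, so their passing depends on the groups in which they are high.

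Of the 25 members below the filter, Abca15, Abca16 and Abcg3 were at 0 in all 8 libraries. A further 16 never reached 0.1 RPKM. Their highest values were 0.0868 RPKM for Abcb4, the phosphatidylcholine exporter of bile, 0.0490 and 0.0214 RPKM for Abcg5 and Abcg8, which together export plant sterols and cholesterol, 0.0268 RPKM for Abcc2, the canalicular organic anion pump, and 0.0129 RPKM for Abcb11, the bile salt export pump. The remaining ones of these 16 were Abca17 (0.0302 RPKM), Abca9 (0.0377), Abca6 (0.0223), Abca8b (0.0177), Abca14 (0.0136), Abca8a (0.0100), Abca13 (0.00119), Abcc6 (0.0209), Abcc9 (0.0199), Abcc12 (0.00669) and Abcd2 (0.00981), each given by its highest library. The 6 that reached at least 0.1 RPKM in a library were Abca4 (0.109 RPKM), Abca12 (0.314), Abcb9 (0.697), Abcc8 (0.413), Abcg1 (0.507) and Abcg4 (0.148).

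Summed over all 50 members, the level was 454 and 436 RPKM in double null, 499 and 482 RPKM in Ezh2 null, 287 and 279 RPKM in Setd2 null, and 276 and 279 RPKM in control. The Ezh2-deleted libraries were all above the Ezh2-intact ones. Abcd3, a fatty acid transporter of the peroxisome membrane, had the highest mean of the family in double null (65.1 ± 5.1 RPKM), in Setd2 null (58.7 ± 2.4 RPKM) and in control (55.8 ± 0.63 RPKM; SD, n = 2 each here and below). In Ezh2 null Abcb5 was first with 68.0 ± 5.8 RPKM and Abcd3 next with 66.8 ± 5.1 RPKM, which differ by less than their spread. Abce1 was second in Setd2 null and in control, at 32.6 ± 4.3 and 28.8 ± 3.5 RPKM, and Abcf1 was second in double null at 53.5 ± 5.3 RPKM. Abcc1 ranked 3 in Setd2 null (27.6 ± 1.7 RPKM) and 4 in control (24.5 ± 1.3 RPKM), and its level overlapped with that of Abcf1 in Setd2 null (25.3 ± 2.8 RPKM) but not in control (27.03 ± 0.70 RPKM). In double null and Ezh2 null it ranked 10 and 12, at 17.3 ± 0.43 and 17.1 ± 1.1 RPKM.

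**Figure D1:**
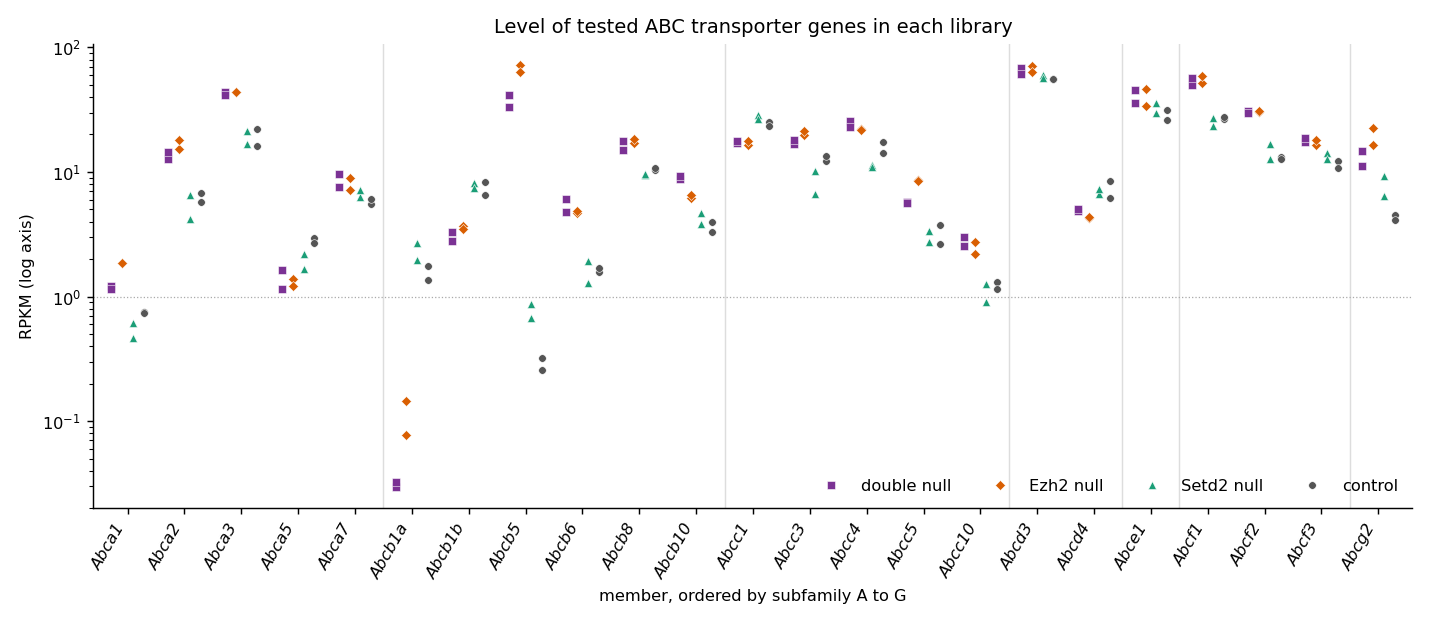
RPKM on a log axis for 23 of the 25 members that passed the filter, ordered by subfamily, with 1 point per library and the 4 genotypes side by side. Abcb5 stands at 33.5 to 72.2 RPKM in the Ezh2-deleted libraries and under 1 RPKM in the others, and Abcb1a stands under 0.2 RPKM in the Ezh2-deleted libraries and above 1 RPKM in the others.

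Ezh2 deletion was compared in Setd2-intact cells (Ezh2 null over control) and in Setd2-deleted cells (double null over Setd2 null), which share no library. The comparisons are still not independent. Differences between replicates correlated at 0.933 between double null and Ezh2 null, and at 0.105 to 0.358 between the other groups. Anything else that the Ezh2-deleted libraries share, such as their higher read numbers, cannot be told apart from the deletion. With Setd2 intact, 16 members rose and 5 fell by limma on log2(RPKM + 1), of 25 tested, against 56.6% of all genes called (36.1% higher and 20.5% lower), a difference of a bulk culture in which more cells of a type and more RNA per cell cannot be told apart. With Setd2 deleted, 15 members rose and 4 fell, against 55% of all genes (35.6% higher and 19.4% lower). The 25 members include 3 that passed through a high group, and the calls lie on a background in which more than every other gene was called. The median log2 fold change of the tested members was 0.63 in Ezh2 null over control and 0.66 in double null over Setd2 null, beside 0.18 over all genes in each. All 19 members called with Setd2 deleted were also called, in the same direction, with Setd2 intact, which is 90.5% of the members called there, and over all genes the calls shared in the same direction were 85.5% of those with Setd2 deleted and 83.2% of those with Setd2 intact. Libraries did not overlap for 23 of 25 members in either comparison, against 81.4% and 76.2% of all genes. Another scaling of the libraries moved the median of all genes: under quantile normalization it was 0.02 in Ezh2 null over control, a shift of -0.16, and 0.0017 in double null over Setd2 null, a shift of -0.18. No called member changed sign under it, 13 members were then called higher and 5 lower in Ezh2 null over control (28.1% and 27.8% of all genes), and 12 higher and 5 lower in double null over Setd2 null (25.9% and 27.3%).

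Other markers moved with Ezh2 deletion too. The 9 stroma markers summed to 33.8 and 29.3 RPKM in double null, 34.5 and 33.0 RPKM in Ezh2 null, 8.05 and 13.5 RPKM in Setd2 null, and 12.6 and 9.42 RPKM in control, of which Dcn gave 12.6 to 25.5 RPKM in the Ezh2-deleted libraries and 0.907 to 1.30 RPKM in the others. Among the other stroma markers Col1a1, Col1a2, Col3a1, Pdgfra, Pdgfrb and Lum were also higher in every Ezh2-deleted library, but Postn was at 0.0178 to 0.223 RPKM there and at 6.00 to 10.3 RPKM in the others, and Acta2 at 0.0556 to 0.223 RPKM and 0.556 to 2.00 RPKM. The 8 markers of seminal vesicle and urothelium summed to 468 and 536 RPKM in double null, 190 and 235 RPKM in Ezh2 null, 38.6 and 23.9 RPKM in Setd2 null, and 21.7 and 24.4 RPKM in control. Krt13 gave most of these sums in the Ezh2-deleted libraries, at 392 and 471 RPKM in double null and 116 and 162 RPKM in Ezh2 null, against 9.20 to 18.99 RPKM in the others, while Upk3a was at 1.09 to 1.502 RPKM in the Ezh2-deleted libraries and 5.40 to 14.8 RPKM in the others. The 7 basal markers summed to 3000 and 3600 RPKM in double null, 1734 and 2205 RPKM in Ezh2 null, 2159 and 1836 RPKM in Setd2 null, and 2007 and 1924 RPKM in control, and the 9 luminal markers to 3754 to 5192 RPKM in all 8 libraries. Within the basal list Krt5 was at 1107 to 2084 RPKM in the Ezh2-deleted libraries and 497 to 607 RPKM in the others, and Lamb3 at 39.8 to 58.1 RPKM and 336 to 405 RPKM. The luminal genes Pbsn and Sbp were at 2.19 to 3.95 and 49.0 to 63.8 RPKM in the Ezh2-deleted libraries, and at 0 in all or most of the others. The 7 immune markers summed to 13.2 to 14.9 RPKM in the Ezh2-deleted libraries and 21.8 to 39.6 RPKM in the others, mostly from Cd68 in the others and from Cd68 with Lyz2 in the Ezh2-deleted libraries, where Lyz2 was at 2.67 to 8.20 RPKM, against 0 in all others. The defining immune marker Ptprc was at 0 to 0.0582 RPKM. The 5 endothelial markers summed to 1.97 to 3.18 RPKM against 0.546 to 0.664 RPKM, nearly all from Esam, with Cdh5 at 0 to 0.0347 RPKM. The part of these shifts in the results for the transporters was not tested.

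In subfamily A, which holds large lipid transporters, 4 of 5 tested members rose with Setd2 intact and 3 of 5 with Setd2 deleted. Of all genes 36.1% and 35.6% were called higher, and counts of so few members show no pattern of a subfamily. Abca3, which loads phospholipid into the lamellar bodies of lung cells, had 43.6 and 41.8 RPKM in double null, 44.2 and 44.1 RPKM in Ezh2 null, 16.8 and 21.5 RPKM in Setd2 null, and 16.2 and 22.3 RPKM in control. Its log2 fold change was 1.17 ± 0.17 (SE) in Ezh2 null over control (limma adjusted p = 0.000296) and 1.13 ± 0.17 in double null over Setd2 null (adjusted p = 0.000409). Abca2, an endosomal and lysosomal member best known from brain, had 12.8 and 14.6 RPKM in double null, 15.2 and 17.9 RPKM in Ezh2 null, 4.19 and 6.48 RPKM in Setd2 null, and 5.69 and 6.83 RPKM in control. For both genes each Ezh2-deleted library lay above each Ezh2-intact one.

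The log2 fold changes of Abca2 were 1.27 ± 0.18 with Setd2 intact and 1.23 ± 0.18 with Setd2 deleted (limma adjusted p = 0.000297 and 0.000394). Abca1, the cholesterol and phospholipid exporter that forms high-density lipoprotein, was low but rose to 1.85 ± 0.0031 RPKM in Ezh2 null, against 0.745 ± 0.0066 RPKM in control, and to 1.19 ± 0.049 RPKM in double null, against 0.539 ± 0.11 RPKM in Setd2 null, where the call was lost under quantile normalization (limma adjusted p = 0.143). For limma Abca1, counted above among the members that rose, passed the filter only through the Ezh2-deleted groups. On recovered reads it passed the low-count filter of edgeR in the other libraries as well. There the log2 fold change was 1.14 in Ezh2 null over control (edgeR adjusted p = 0.00101). In double null over Setd2 null it was 0.95 (edgeR adjusted p = 0.00303). Abca5 moved the other way. It had 1.30 ± 0.13 RPKM in Ezh2 null and 2.84 ± 0.19 RPKM in control (log2 fold change -0.74, limma adjusted p = 0.00221), and 1.39 ± 0.34 RPKM in double null and 1.92 ± 0.38 RPKM in Setd2 null (-0.29, adjusted p = 0.121), where it was called lower under quantile normalization (0.00563), under median-ratio scaling (0.0366) and by edgeR on recovered reads (0.0241). Abca5 stands in a row with Abca8b, Abca8a, Abca9 and Abca6 on chromosome 11 (109932568 to 110337723, mm10), and the other 4 genes of that row were all below the filter, as given above.

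Abca7, a phospholipid transporter close in sequence to Abca1, had 8.06 ± 1.2 RPKM in Ezh2 null and 5.799 ± 0.40 RPKM in control, a log2 fold change of 0.41 with a limma adjusted p of 0.0407. That call was lost without Ezh2 null replicate 2 (adjusted p = 0.241), without control replicate 1 (0.191) and without control replicate 2 (0.0887). It was also lost under quantile normalization (0.242), under median-ratio scaling (0.206), with no filter (0.0652) and by edgeR on recovered reads (0.161), so it held under 5 of 12 alternatives.

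Subfamily B held both the highest rise and the deepest fall of the family. Abcb5, a plasma membrane member known as a marker of limbal stem cells and melanoma-initiating cells, lies on chromosome 12 (118867486 to 118966547, minus strand). It had 41.3 and 33.5 RPKM in double null, 72.2 and 63.9 RPKM in Ezh2 null, 0.868 and 0.669 RPKM in Setd2 null, and 0.255 and 0.321 RPKM in control. No 2 genotypes overlapped, and the order was Ezh2 null, double null, Setd2 null, control.

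Recovered reads for Abcb5 were 9033 and 7490 in double null and 17645 and 13369 in Ezh2 null, against 126 and 105 in Setd2 null and 34 and 43 in control. The mean RPKM was 48.7 times as high in double null as in Setd2 null (log2 fold change 4.44 ± 0.14 SE, limma adjusted p = 2.58e-08) and 236 times as high in Ezh2 null as in control. Because 1 was added to every RPKM, the log2 fold changes understate the changes of genes that are low in a group. For limma Abcb5 passed the filter only through the Ezh2-deleted groups. On recovered reads it passed the low-count filter of edgeR in the other libraries as well. There the log2 fold change was 5.42 in double null over Setd2 null and 7.70 in Ezh2 null over control (edgeR adjusted p = 6.46e-08 and 2.01e-08).

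Abcb1a and Abcb1b, the rodent P-glycoproteins that pump out many drugs, lie next to each other on chromosome 5 (8567091 to 8748570 and 8798147 to 8866314, both plus strand), followed by Abcb4. Abcb1a had 0.0295 and 0.0325 RPKM in double null, 0.145 and 0.0770 RPKM in Ezh2 null, 1.95 and 2.67 RPKM in Setd2 null, and 1.75 and 1.36 RPKM in control. The Ezh2-deleted libraries held 8, 9, 44 and 20 recovered reads, and the Ezh2-intact ones 352 and 521 in Setd2 null and 289 and 226 in control. The log2 fold change was -1.68 ± 0.14 in double null over Setd2 null (limma adjusted p = 1.04e-05) and -1.20 ± 0.14 in Ezh2 null over control (adjusted p = 8.83e-05), and the groups did not overlap. The mean RPKM in double null was 0.0134 of that in Setd2 null, and in Ezh2 null 0.0715 of that in control. For limma Abcb1a passed the filter only through the Ezh2-intact groups. On recovered reads, without the added 1 RPKM, the log2 fold changes were -6.38 and -3.97 (edgeR adjusted p = 1.46e-06 and 1.23e-05).

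Abcb1b had 3.28 and 2.77 RPKM in double null, 3.69 and 3.49 RPKM in Ezh2 null, 8.17 and 7.42 RPKM in Setd2 null, and 8.33 and 6.49 RPKM in control. It fell by 1.13 on the log2 scale in double null over Setd2 null (limma adjusted p = 0.000151) and by 0.87 in Ezh2 null over control (adjusted p = 0.000747). Abcb4 was at 0.0188 RPKM or less in the Ezh2-deleted libraries and at 0.0868 RPKM or less in the others. Abcb1a and Abcb1b are close paralogs, and how shared reads were divided between genes is not stated. Abcb1a also overlaps Rundc3b on the opposite strand by 55937 bases. Without known strandedness their reads cannot be told apart, and Rundc3b was at 0.119 to 0.314 RPKM in the Ezh2-deleted libraries and 0.0233 to 0.0935 RPKM in the others.

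Among the mitochondrial members of subfamily B, Abcb6, Abcb8 and Abcb10 rose in both comparisons. Abcb6, which binds porphyrins, had 4.73 and 6.10 RPKM in double null, 4.69 and 4.83 RPKM in Ezh2 null, 1.28 and 1.94 RPKM in Setd2 null, and 1.56 and 1.71 RPKM in control. Its Ezh2-deleted libraries were all above the others, with log2 fold changes of 1.30 ± 0.16 in double null over Setd2 null and 1.13 ± 0.16 in Ezh2 null over control (limma adjusted p = 0.000116 and 0.000258). Abcb10, required for heme synthesis in red cell precursors, had 9.02 ± 0.29 RPKM in double null against 4.22 ± 0.61 RPKM in Setd2 null, and 6.36 ± 0.28 RPKM in Ezh2 null against 3.65 ± 0.50 RPKM in control. Abcb8, of the inner mitochondrial membrane, had 16.4 ± 1.8 RPKM in double null against 9.53 ± 0.11 RPKM in Setd2 null, and 17.8 ± 0.85 RPKM in Ezh2 null against 10.5 ± 0.32 RPKM in control. Abcb8 overlaps Cdk5 on the opposite strand by 2351 bases.

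**Figure D2:**
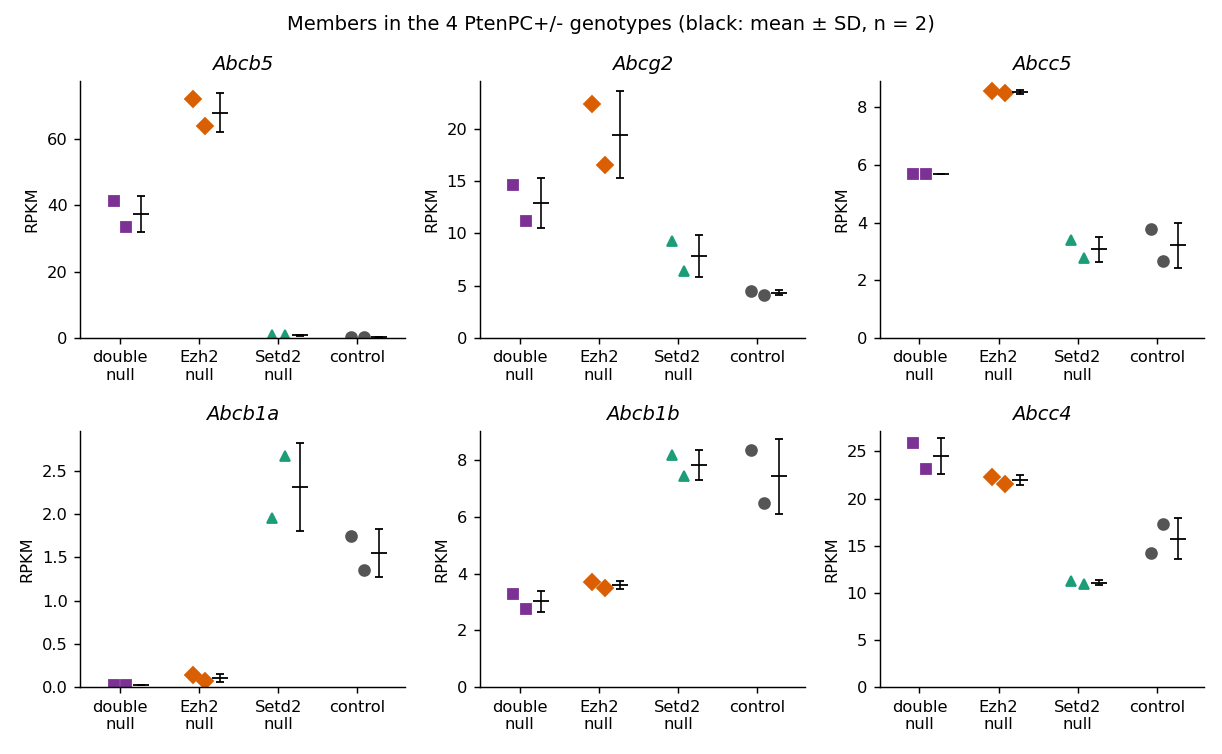
RPKM of 6 members in each library of the 4 PtenPC+/- genotypes on linear axes from 0, with the mean ± SD (n = 2) in black. Abcb5, Abcg2 and Abcc5 are highest in Ezh2 null and lower in double null, Abcb1a and Abcb1b are low in both Ezh2-deleted genotypes, and Abcc4 is lowest in Setd2 null at 11.3 and 10.9 RPKM.

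In subfamily C, the exporters of conjugated and other organic anions, 4 of 5 tested members rose and Abcc1 fell in both comparisons. Of all genes 36.1% were called higher with Setd2 intact and 35.6% with Setd2 deleted. Abcc5, an exporter of cyclic nucleotides, had 5.69 and 5.68 RPKM in double null, 8.58 and 8.49 RPKM in Ezh2 null, 3.38 and 2.76 RPKM in Setd2 null, and 3.77 and 2.65 RPKM in control. Each Ezh2-deleted library was above each Ezh2-intact one, and the log2 fold change was 1.19 ± 0.15 in Ezh2 null over control and 0.72 ± 0.15 in double null over Setd2 null (limma adjusted p = 0.000139 and 0.00309). Abcc4, an exporter of cyclic nucleotides and prostaglandins, had 25.8 and 23.2 RPKM in double null, 22.3 and 21.6 RPKM in Ezh2 null, 11.3 and 10.9 RPKM in Setd2 null, and 14.3 and 17.3 RPKM in control.

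Abcc4 was called in both comparisons without overlap. Its log2 fold change was 1.07 ± 0.13 in double null over Setd2 null (limma adjusted p = 0.000104) and 0.46 ± 0.13 in Ezh2 null over control (adjusted p = 0.0128). The second call was lost without Ezh2 null replicate 1 (adjusted p = 0.0545), without control replicate 1 (0.133), under median-ratio scaling (0.0839), under quantile normalization (0.0611) and by edgeR on recovered reads (0.0783). Abcc3, an organic anion and bile salt exporter of basolateral membranes, had 17.4 ± 0.79 RPKM in double null against 8.40 ± 2.4 RPKM in Setd2 null, and 20.7 ± 1.0 RPKM in Ezh2 null against 12.8 ± 0.88 RPKM in control, where its call was lost without control replicate 1 (limma adjusted p = 0.0627). Abcc10 had 2.78 ± 0.31 RPKM in double null against 1.08 ± 0.26 RPKM in Setd2 null, and 2.47 ± 0.41 RPKM in Ezh2 null against 1.23 ± 0.11 RPKM in control, where the call was lost under quantile normalization (limma adjusted p = 0.0713). Abcc10 overlaps Dlk2 on the opposite strand by 42 bases. Dlk2 was at 3.00 to 6.48 RPKM in the Ezh2-deleted libraries and 0.0339 to 0.160 RPKM in the others.

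Abcc1, the exporter of glutathione conjugates and leukotriene C4, was the member of this subfamily that fell. It had 17.3 ± 0.43 RPKM in double null against 27.6 ± 1.7 RPKM in Setd2 null (-0.64 on the log2 scale, limma adjusted p = 0.00139). In Ezh2 null it had 17.1 ± 1.1 RPKM, against 24.5 ± 1.3 RPKM in control (-0.49, adjusted p = 0.0058), and that call was lost without control replicate 1 (adjusted p = 0.0581).

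Subfamily D, whose members carry very long-chain fatty acids into peroxisomes or cobalamin out of lysosomes, had no member called higher in either comparison and 1 called lower. Of all genes 36.1% were called higher and 20.5% lower with Setd2 intact, and 35.6% and 19.4% with Setd2 deleted. Abcd3 was not called by limma in Ezh2 null over control (adjusted p = 0.109) or in double null over Setd2 null (0.346). Abcd4, the lysosomal cobalamin transporter, fell to 4.32 ± 0.066 RPKM in Ezh2 null, against 7.30 ± 1.6 RPKM in control (log2 fold change -0.63, limma adjusted p = 0.00507), a call lost without control replicate 2 (adjusted p = 0.0578). It had 4.94 ± 0.14 RPKM in double null and 6.93 ± 0.43 RPKM in Setd2 null (-0.42, adjusted p = 0.0363), a call lost without any 1 of the 4 libraries (adjusted p = 0.0638 to 0.136) and with no filter (0.055). Abce1, the single member of subfamily E, which splits ribosomes after termination, had 40.7 ± 7.0 RPKM in double null, 40.1 ± 8.4 RPKM in Ezh2 null, 32.6 ± 4.3 RPKM in Setd2 null and 28.8 ± 3.5 RPKM in control. It was not called in either comparison (limma adjusted p = 0.0608 in Ezh2 null over control and 0.186 in double null over Setd2 null), but it was called higher in Ezh2 null over control without Ezh2 null replicate 2 (adjusted p = 0.0211) and when only these groups were fitted (0.0298). Blocking on the replicate number made it called higher in both comparisons (adjusted p = 0.00268 and 0.0153), and replicate 1 was above replicate 2 in all 4 groups.

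All 3 members of subfamily F, cytosolic factors of translation, rose in both comparisons, but in double null over Setd2 null the call of Abcf3 held under only 6 of 12 alternatives. Of all genes 36.1% were called higher with Setd2 intact and 35.6% with Setd2 deleted. Abcf1, which associates with initiation factor 2, had 49.8 and 57.2 RPKM in double null, 51.4 and 58.8 RPKM in Ezh2 null, 23.3 and 27.3 RPKM in Setd2 null, and 26.5 and 27.5 RPKM in control. Abcf2 had 30.6 and 29.96 RPKM in double null, 30.2 and 31.1 RPKM in Ezh2 null, 16.9 and 12.7 RPKM in Setd2 null, and 13.2 and 12.6 RPKM in control. In both genes the 4 Ezh2-deleted libraries stood close together and above the 4 others.

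The log2 fold change of Abcf1 was 1.05 ± 0.14 in double null over Setd2 null and 0.998 ± 0.14 in Ezh2 null over control (limma adjusted p = 0.000168 and 0.00022). That of Abcf2 was 0.997 ± 0.14 and 1.19 ± 0.14 (adjusted p = 0.000293 and 8.93e-05). Abcf3 moved least, with 18.1 ± 1.0 RPKM in double null against 13.4 ± 1.0 RPKM in Setd2 null (adjusted p = 0.0199), and 17.3 ± 1.2 RPKM in Ezh2 null against 11.6 ± 1.0 RPKM in control (0.00469). The call of Abcf3 was lost without double null replicate 2 (adjusted p = 0.119) and without Setd2 null replicate 2 (0.078) in double null over Setd2 null, and without control replicate 2 (0.0532) in Ezh2 null over control. In double null over Setd2 null it was also lost under quantile normalization (0.124), under median-ratio scaling (0.158), by edgeR on recovered reads (0.16) and when only these groups were fitted (0.051).

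In subfamily G only Abcg2 passed the filter. Abcg2, the breast cancer resistance protein, which exports drugs, urate and porphyrins and marks side population stem cells, lies on chromosome 6 (58584491 to 58692451, plus strand). It had 14.6 and 11.2 RPKM in double null, 22.4 and 16.5 RPKM in Ezh2 null, 9.25 and 6.42 RPKM in Setd2 null, and 4.52 and 4.14 RPKM in control. The genotypes stood in the same order as for Abcb5, without overlap. The log2 fold change was 1.93 ± 0.20 in Ezh2 null over control (limma adjusted p = 3.73e-05) and 0.66 ± 0.20 in double null over Setd2 null (adjusted p = 0.0181). The second call was lost without double null replicate 1 (adjusted p = 0.103), without Setd2 null replicate 2 (0.141), under quantile normalization (0.0705), under median-ratio scaling (0.0575), with no filter (0.051) and by edgeR on recovered reads (0.0613).

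**Figure D3:**
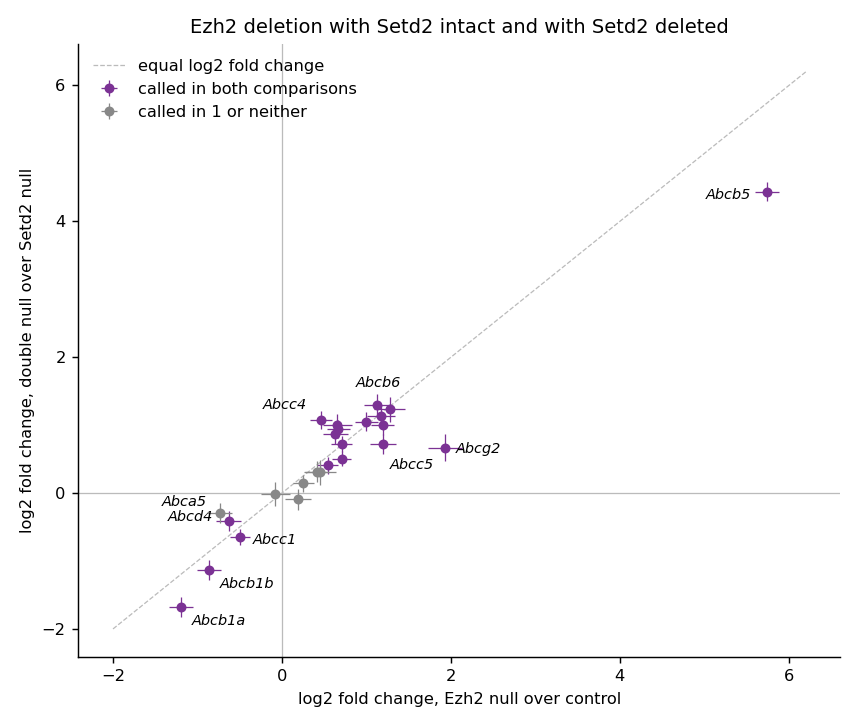
Log2 fold change of each tested member in Ezh2 null over control (horizontal) and in double null over Setd2 null (vertical), with bars of 1 SE and a dashed line of equal change. Abcb5 at 5.74 and 4.44 and Abcg2 at 1.93 and 0.66 lie below the line, and Abcb1a at -1.20 and -1.68 is lowest.

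The low members were followed through the recovered reads, which edgeR tested for 31 members. Against 51.2% of all genes called in Ezh2 null over control and 49.5% in double null over Setd2 null, 23 and 22 of the 31 were called. Of the 31, Abca12, Abcg1 and Abcg4 passed the low-count filter only through the Ezh2-deleted libraries, in which they are high, so nothing is read from these counts or from their tests for Ezh2 deletion. Among the low members that passed without those libraries, Abcb9 rose and Abcc8 fell in both comparisons. Abca4, which also passed without them, was called in neither (edgeR adjusted p = 0.213 in Ezh2 null over control and 0.970 in double null over Setd2 null). Abca12, the keratinocyte lipid transporter of harlequin ichthyosis, had 130 and 107 reads in double null, 23 and 19 in Ezh2 null, 3 and 9 in Setd2 null, and 1 and 1 in control. The Abca12 libraries did not overlap between double null and Ezh2 null. The log2 fold change of Abca12 was 2.55 in double null over Ezh2 null (edgeR adjusted p = 0.0217).

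Abcg1, which exports cholesterol to high-density lipoprotein, had 140 and 150 reads in double null, 32 and 58 in Ezh2 null, 8 and 0 in Setd2 null, and 6 and 2 in control. Abcb9, a lysosomal peptide transporter, had 118 and 184 reads in double null, 130 and 154 in Ezh2 null, 5 and 10 in Setd2 null, and 15 and 12 in control. Its log2 fold change was 3.59 in double null over Setd2 null and 2.47 in Ezh2 null over control (edgeR adjusted p = 0.000213 and 0.00141). Abcc8, the sulfonylurea receptor of the pancreatic potassium channel, had 28 and 37 reads in double null, 11 and 37 in Ezh2 null, 92 and 90 in Setd2 null, and 38 and 47 in control. Its log2 fold change was -2.21 in double null over Setd2 null (edgeR adjusted p = 0.00939) and -1.70 in Ezh2 null over control (0.0325). For Abcb9 all Ezh2-deleted libraries were above the others, and for Abcc8 all were below. At these depths every one of these genes remained under 1 RPKM in all libraries.

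Setd2 deletion was compared in Ezh2-intact cells (Setd2 null over control) and in Ezh2-deleted cells (double null over Ezh2 null), each of which shares 1 group with either comparison of Ezh2 deletion. In Setd2 null over control limma called none of 25 members, against 1.07% of all genes, while 6 were under an unadjusted p of 0.05 (11.6% of all genes), and edgeR on recovered reads called 1 of 31, Abcb5 (0.908% of all genes). The smallest p-values belonged to Abcc4, Abcg2 and Abcc3. Abcc4 had 11.3 and 10.9 RPKM in Setd2 null and 14.3 and 17.3 RPKM in control (log2 fold change -0.46 ± 0.13, limma adjusted p = 0.175). Abcg2 had 9.25 and 6.42 RPKM in Setd2 null and 4.52 and 4.14 RPKM in control (0.71 ± 0.20, adjusted p = 0.178), and passed with the replicate block (adjusted p = 0.031). Abcc3 had 6.67 and 10.1 RPKM in Setd2 null and 12.1 and 13.4 RPKM in control (-0.57 ± 0.17, adjusted p = 0.204), and passed without Setd2 null replicate 2 (adjusted p = 0.0378). None of these 3 overlapped between the groups, nor did 12 of the 25 members in all, against 42.2% of all genes. Abcb5 had a log2 fold change of 0.46 ± 0.14 on log2(RPKM + 1) (limma adjusted p = 0.227) and of 1.44 on recovered reads (edgeR adjusted p = 0.0186), and 1.16 with a pseudocount of 0.1 (limma adjusted p = 0.0255).

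In double null over Ezh2 null limma called 1 of 25 members, Abcb5, against 6.49% of all genes. Abcb5 had 37.4 ± 5.5 RPKM in double null and 68.0 ± 5.8 RPKM in Ezh2 null, a ratio of 0.550 and a log2 fold change of -0.85 ± 0.14 (limma adjusted p = 0.00621). The call was lost without double null replicate 2 (adjusted p = 0.0585) and when only these groups were fitted (0.0602). Next by p stood Abcc5 with a log2 fold change of -0.51 ± 0.15 (limma adjusted p = 0.0952, and 0.0431 with the replicate block) and Abca1 with -0.38 ± 0.11 (adjusted p = 0.1002), whose values are given above and did not overlap between the groups. On recovered reads edgeR called 3 of 31 members (5.11% of all genes): Abcb5, Abca12 as described, and Abcb1a, which had 8 and 9 reads in double null and 44 and 20 in Ezh2 null (log2 fold change -1.81, edgeR adjusted p = 0.0242).

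**Figure D4:**
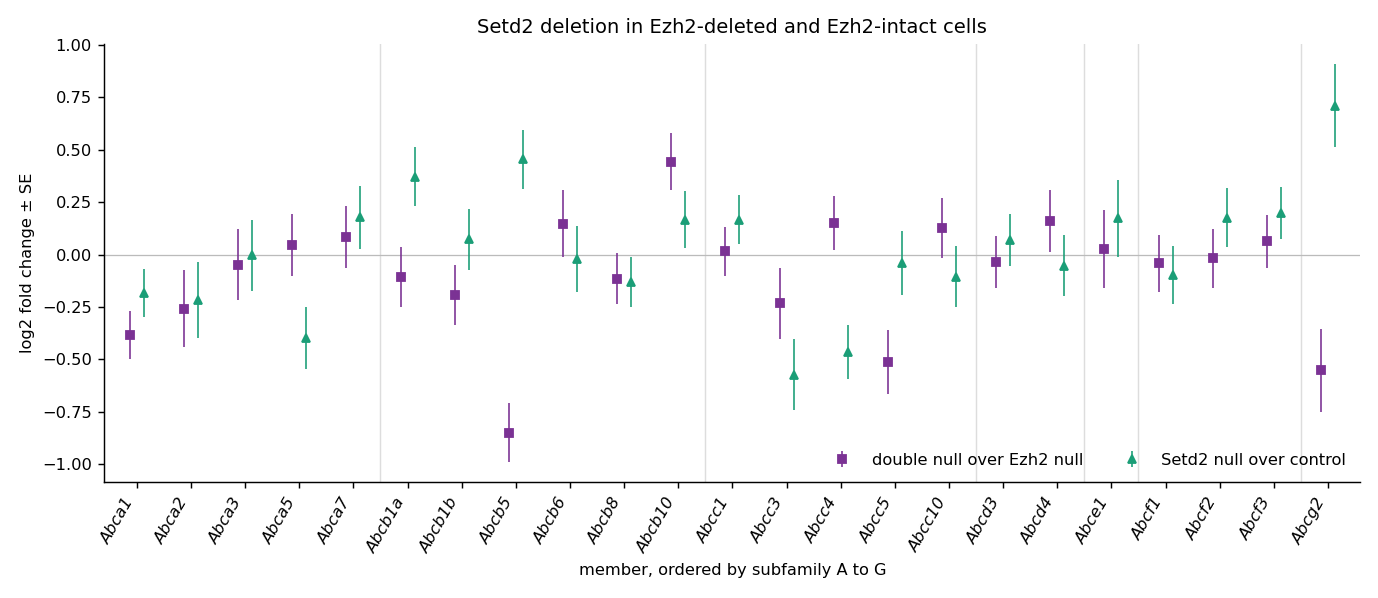
Log2 fold change ± SE of 23 tested members in double null over Ezh2 null (squares) and in Setd2 null over control (triangles). The markers lie on opposite sides of 0 for Abcb5 (-0.85 and 0.46) and Abcg2 (-0.55 and 0.71), and most other members lie within 0.5 of 0 in both.

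Whether Ezh2 deletion acted differently with Setd2 intact and deleted was tested as the interaction of the deletions. Limma called 1 of 25 members, against 2.59% of all genes. For Abcb5 the log2 effect of Ezh2 deletion was lower by 1.31 ± 0.20 in Setd2-deleted cells (interaction -1.31, limma adjusted p = 0.00844, range 0.00383 to 0.0491 over the alternatives). Abcg2 had an interaction of -1.26 ± 0.28 and an adjusted p of 0.0513, just outside the threshold, and it passed without double null replicate 1 (0.0343), without Ezh2 null replicate 2 (0.0243), without Setd2 null replicate 2 (0.0483), under median-ratio scaling (0.0497) and with the replicate block (0.00808). Abcc4 came next by p with 0.61 ± 0.18 (adjusted p = 0.157). On recovered reads edgeR called 2 of 31 members, Abcb5 (-2.28, adjusted p = 0.00383) and Abcb1a (-2.41, adjusted p = 0.0467), against 1.5% of all genes. For Abcb1a this was the only call among 14 alternatives, and limma gave -0.48 (adjusted p = 0.433). The edgeR value rests on 8 and 9 reads in double null.

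In the PtenPC-/- cells, Ezh2 K735R was compared with wild-type Ezh2. EdgeR called none of the 30 members tested, against 0.00757% of all genes (1 gene), and 2 were under an unadjusted p of 0.05 (9.24% of all genes), with none called by DESeq2 or by limma on log2 CPM. CPM is counts scaled to the library total, adjusted by the TMM scaling factors of edgeR. It carries no correction for length, so it is compared here only within a gene. Abca3 had 107 and 91.8 CPM in Ezh2 K735R and 128 and 132 CPM in wild-type Ezh2 (log2 fold change -0.38 ± 0.11, edgeR adjusted p = 0.434). Abcc4 had 172 and 187 CPM in Ezh2 K735R and 232 and 219 CPM in wild-type Ezh2 (-0.33 ± 0.09, adjusted p = 0.438). Abcb5 had 1.47 and 0.727 CPM in Ezh2 K735R and 2.50 and 2.56 CPM in wild-type Ezh2, from 44 and 21 against 75 and 95 counts (-1.20 ± 0.49, adjusted p = 0.557). All 3 were lower in both Ezh2 K735R libraries, and libraries did not overlap for 18 of the 30 members, against 42.3% of all genes.

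The wild-type Ezh2 libraries differed between themselves for some members. Abcc1 had 255 and 250 CPM in Ezh2 K735R and 165 and 229 CPM in wild-type Ezh2, and Abcb1a had 4.62 and 4.12 CPM in Ezh2 K735R and 0.634 and 2.50 CPM in wild-type Ezh2. Without wild-type Ezh2 replicate 2 edgeR called 4 members, Abcc1 (0.62, adjusted p = 0.00136) and Abcb1a (2.79, 0.00777) as higher and Abcc5 (-0.47, 0.02) and Abcc4 (-0.36, 0.0245) as lower in Ezh2 K735R, but 1560 genes were called in that fit. Abcg2 had 20.7 ± 4.4 CPM in Ezh2 K735R and 17.8 ± 2.4 CPM in wild-type Ezh2, and Abcb1b 43.8 ± 4.1 and 40.8 ± 7.3 CPM. The count table holds no row for 18 members, none of which was above 0.0490 RPKM in the other table, and Abcb4 and Abcg4 were below the filter of edgeR.

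**Figure D5:**
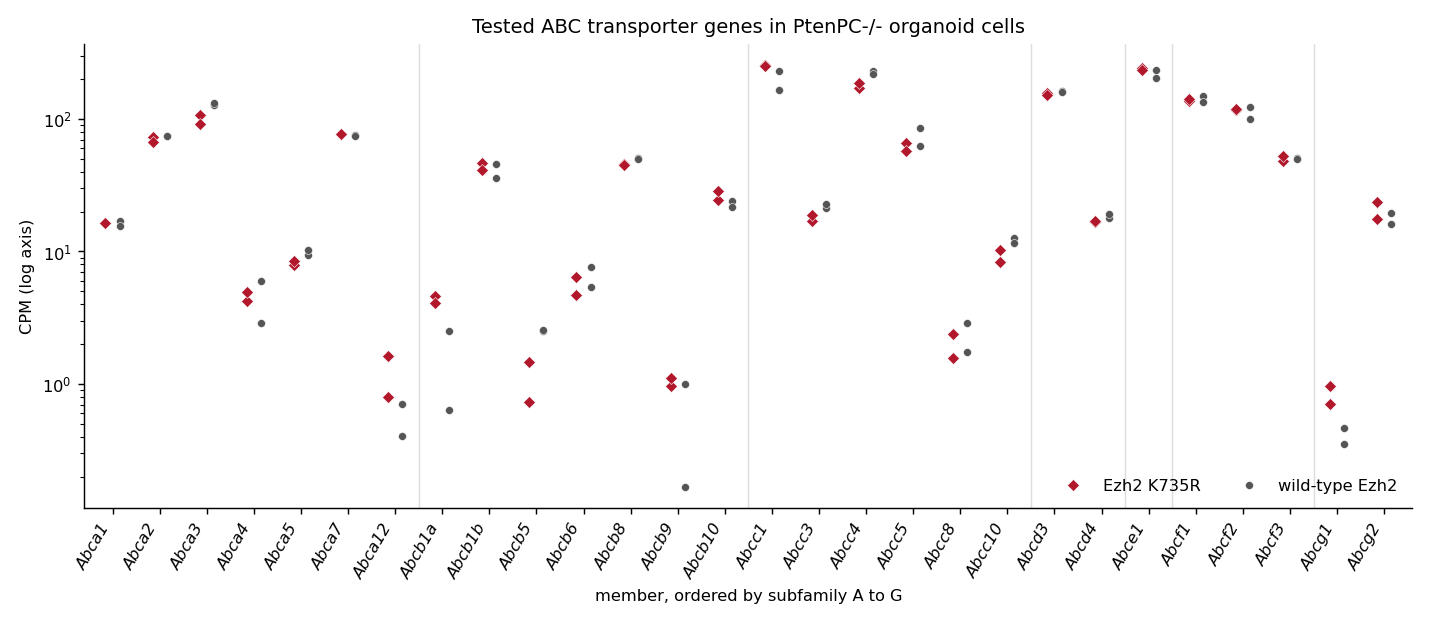
CPM on a log axis of 28 of the 30 tested members in each Ezh2 K735R library and each wild-type Ezh2 library, ordered by subfamily. Libraries of the groups do not overlap for 18 of the 30, against 42.3% of all genes, and edgeR called none of the 30. Among the 18 is Abcb5 at 1.47 and 0.727 CPM in Ezh2 K735R under 2.50 and 2.56 CPM in wild-type Ezh2, from 21 to 95 counts a library.

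Genes that work with the transporters were counted from lists chosen by known function, with up to 3 of the smallest p-values in Ezh2 null over control named. All counts are limma calls, to be read beside the 56.6% of all genes called in Ezh2 null over control (36.1% higher and 20.5% lower) and the 55% called in double null over Setd2 null (35.6% higher and 19.4% lower). Of 12 tested partners of cholesterol efflux, 4 rose and 2 fell with Setd2 intact, a share called of 50%, under that of all genes, and 8 rose and 2 fell with Setd2 deleted (83.3%). Npc1, the lysosomal cholesterol exporter, fell to 8.28 RPKM in Ezh2 null, against 33.7 RPKM in control (log2 fold change -1.90, adjusted p = 5.14e-06). Rxra, the partner of the sterol-sensing LXR receptors, rose to 32.7 RPKM, against 13.2 RPKM in control (1.25, adjusted p = 9.53e-05), and Apoe, the lipid acceptor of ABC exporters, to 29.5 RPKM, against 4.42 RPKM in control (2.49, adjusted p = 0.00327).

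Of 11 tested genes of the xenobiotic response, 5 rose and 3 fell with Setd2 intact (72.7% called, against 56.6% of all genes), and 5 rose and 4 fell with Setd2 deleted (81.8%, against 55%). Gstm1, a glutathione transferase, rose to 91.6 RPKM in Ezh2 null, against 6.38 RPKM in control, and Gclc, which starts glutathione synthesis, to 24.2 RPKM, against 6.12 RPKM in control (limma adjusted p = 2.76e-08 and 1.08e-06). Gsta4, another glutathione transferase, rose to 429 RPKM, against 155 RPKM in control (adjusted p = 0.000104). Of 8 peroxisome genes 5 rose and none fell in both comparisons (62.5% called, near the 56.6% and 55% of all genes), with Hsd17b4 and Ehhadh, enzymes of peroxisomal fatty acid oxidation, at 43.0 and 3.59 RPKM in Ezh2 null against 15.4 and 1.68 RPKM in control (limma adjusted p = 8.42e-06 and 0.000443).

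Of 8 genes of heme and iron-sulfur synthesis, 4 rose and 1 fell with Setd2 intact (62.5% called, near the 56.6% of all genes), and 6 rose and 1 fell with Setd2 deleted (87.5%, against 55%). Slc25a37, the mitochondrial iron importer, was at 12.2 RPKM in Ezh2 null against 28.97 RPKM in control, while Iscu, the iron-sulfur scaffold, was at 47.9 against 23.0 RPKM and Glrx5 at 62.7 against 20.5 RPKM (limma adjusted p = 5.09e-05, 0.000538 and 0.00247). Of 7 genes of ribosome recycling and GCN2 signalling 2 rose and 1 fell in both (42.9% called, under the 56.6% and 55% of all genes), Pelo and Gcn1l1 being higher and Eif2ak4 lower. Of 5 organic anion uptake carriers 1 rose and 1 fell in both (40% called, under the 56.6% and 55% of all genes): the carnitine carrier Slc22a5 was at 10.2 RPKM in Ezh2 null against 3.69 RPKM in control, and the prostaglandin carrier Slco2a1 at 55.6 against 220 RPKM (limma adjusted p = 2.05e-05 and 1.35e-05). Slco3a1 came next by p in that list and was not called. None of the listed potassium channel partners of Abcc8 and Abcc9 passed the filter.

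The ABC genes with other symbols and their partners in peptide loading were counted last. Tap1, which with Tap2 pumps peptides into the endoplasmic reticulum, was at 17.5 RPKM in Ezh2 null against 27.6 RPKM in control (log2 fold change -0.63, limma adjusted p = 0.0452) and at 18.1 RPKM in double null against 39.8 RPKM in Setd2 null (-1.05, adjusted p = 0.00441). Tap2 was at 13.5 RPKM in Ezh2 null against 17.6 RPKM in control (-0.35, adjusted p = 0.197) and at 12.5 RPKM in double null against 24.3 RPKM in Setd2 null (-0.90, adjusted p = 0.00653). Cftr, the chloride channel of the family, was at 1.30 RPKM in Ezh2 null against 0.529 RPKM in control (0.58, adjusted p = 0.00385). Of 7 peptide loading partners 1 rose and 1 fell with Setd2 intact, Calr being higher and Tapbpl lower, with B2m next by p (-0.43, adjusted p = 0.0573), and 1 rose and 3 fell with Setd2 deleted. These are 28.6% and 57.1% called, against 56.6% and 55% of all genes.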

How the data were processed

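Gene expression was measured by RNA sequencing in 12 libraries, and 3 chromatin immunoprecipitation and input samples were not analysed here. The authors deposited RPKM values for 8 libraries, per the file headers, and whole-number counts for 4 libraries, whose unit was taken from the deposited values. The submitters' processing notes give mm10 as the build and, among the tools of the series, RSEM, Bowtie, SICER and BWA, without versions. Neither strandedness nor the treatment of shared reads is stated.

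RPKM values were tested with limma 3.58.1 (trend, robust) on log2(RPKM + 1) for genes whose mean across the 8 libraries was 1 RPKM or more, with all 4 groups in 1 model. Counts were tested with edgeR 4.0.16 (TMM, its filter on low counts, robust quasi-likelihood test). All tests were two-sided, adjusted by Benjamini-Hochberg over all genes of a comparison and called at 0.05. Library totals and gene lengths that make the RPKM values whole reads were recovered, and of 13748 genes above 0 in all 8 libraries 13744 (99.97%) were whole within 0.001 reads. These reads went into edgeR as an alternative and gave 7491 calls of 14644 genes in Ezh2 null over control and 7245 in double null over Setd2 null. They are read counts without molecular identifiers. The fits were tested on simulated data. Symbols turned into dates by spreadsheet software (27 and 19) were named from their Entrez identifiers, and none is a member.

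The members, gene lists and tests were chosen with earlier results of these data known. Members were named with values per library where they were called for Ezh2 deletion with a log2 fold change of 1 or more in size and a mean of at least 5 RPKM in the higher group, where they were called in another comparison or had 1 of its 3 smallest p-values, and where a subfamily had members moving in opposite directions. Abcb1a and the low members given with reads were described after their values were seen, and a few genes that count in the totals are not reported here by name. Alternatives were quantile normalization, median-ratio scaling, other filters, a pseudocount of 0.1, edgeR on recovered reads, the replicate number as a block, only the groups compared, DESeq2 1.42.0, limma on log2 CPM and no TMM factors for counts, and leaving out each library. Replicate pairs of a group differed by far more than sampling noise, so none was counted as 1 library. The gene starts of the RefSeq windows belong to GRCm38.p6, the assembly of mm10.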

Additional observations from a re-analysis of the deposited data

Results flagged for a closer look

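The effect of Ezh2 deletion on Abcb5 differed between Setd2-deleted and Setd2-intact cells by a test of the difference itself, the interaction term, at -1.31 on the log2 scale. The log2 fold change was 4.44 in double null over Setd2 null and 5.74 in Ezh2 null over control. For limma Abcb5 passed the filter of 1 RPKM only through the Ezh2-deleted groups. On recovered reads, where it passed the low-count filter in the other libraries as well, the interaction was -2.28 (edgeR adjusted p = 0.00383). Abcb5 was the only one of 25 members tested to pass the interaction, against 2.59% of all genes, and the interaction kept its sign and its call under all 15 alternatives run, with values from -2.28 to -1.16.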

How the results depend on the processing

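The counts of called members in Ezh2 null over control (21) and double null over Setd2 null (19) were 16 to 24 and 15 to 22 under the alternatives. These counts come from differing numbers of members tested. In Ezh2 null over control they were 16 of 19 with a mean of at least 5 RPKM, 24 of 47 with no filter and 23 of 31 by edgeR, against 21 of 25. The genes called in all were 4763, 7540 and 7491, against 6416, so similar counts of members do not show that the result is stable. Under quantile normalization Abca7, Abcc10 and Abcc4 lost their call in the one, and Abca1, Abcf3 and Abcg2 lost theirs while Abca5 was called lower in the other. In Setd2 null over control the count of 0 became 1 with a pseudocount of 0.1 and with edgeR on recovered reads (Abcb5 both times), and was 0 to 1 without single libraries. In double null over Ezh2 null the count of 1 became 3 with no filter (Abca12 and Abcg1 added), 3 with edgeR on recovered reads and 0 with only the groups compared, and was 0 to 1 without single libraries. In the interaction the count of 1 became 2 under median-ratio scaling (Abcg2 added), with no filter (Abca12) and with edgeR on recovered reads (Abcb1a), and was 1 to 2 without single libraries. For Ezh2 K735R the count of 0 was 0 to 4 without single libraries. No called member changed sign. Among members not called, several did, among them Abcd3 in double null over Setd2 null (-0.04 to 0.22), and Abcg2 (-0.02 to 0.42) and Abcb1b (-0.07 to 0.31) for Ezh2 K735R. The cause of these changes was not tested. With the replicate number as a block, the counts were 23 (Abcd3 and Abce1 added), 22 (Abca5, Abca7 and Abce1 added), 1 (Abcg2), 3 (Abcb5, Abcc5 and Abcg2), 2 (Abcb5 and Abcg2) and 0, in the order above with Ezh2 K735R last. Nothing in the labels says that the numbers pair libraries. The deviations of same-numbered libraries correlated at 0.933 between double null and Ezh2 null and at 0.105 to 0.358 between the other groups. Each group had 2 libraries, and low members rest on few reads, 8 to 521 a library for Abcb1a.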
